A study of Mus musculus with 11 samples.

Results

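The genes described here are 37 genes of astrocyte identity and astrocyte reactivity, taken from a list of marker and reactive astrocyte symbols and matched to the Ensembl identifiers of 48709 counted genes. All 37 symbols matched 1 counted gene each. The samples were mRNA libraries from primary hippocampal neuron cultures of E17 embryos of CD1 mice, in which the hippocampi of several embryos had been pooled. From day in vitro (DIV) 10 the cultures were exposed for 48 hours to lipid nanoparticles carrying either a synthetic miR-181a-5p (mimic, n = 5) or a negative control RNA (control, n = 6), and they were harvested at DIV 12. The study's methods give ApoE4 as an addition in both arms, so no group without it was compared here. The labels call the cells neurons, and the nanoparticles were given to the whole culture rather than to a chosen cell type. The labels do not say whether the replicates were separate cultures, so the p-values measure the spread between these samples, which may be technical.

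Astrocytes are the glial cells that take up potassium and glutamate released by neurons, move water and bicarbonate across the tissue, pass small molecules among themselves through gap junctions and supply lipids and secreted proteins. They are recognised by their intermediate filament GFAP, by the folate enzyme ALDH1L1, by the water channel AQP4 and by the transcription factor SOX9. After injury or inflammation astrocytes become reactive, a state marked in mice by raised Gfap, Vim, Serpina3n and Lcn2 and often by raised metallothioneins, the small cysteine-rich proteins that bind zinc and copper. A microRNA such as miR-181a-5p lowers mRNAs that pair with its seed, the bases 2 to 8 at its 5′ end.

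The mature mouse miR-181a-5p of RefSeq and the negative control of the study are shown because their seeds, in capitals, set which transcripts could pair with each. The mimic sequence of the study was identical to the RefSeq mature sequence.
mmu-miR-181a-5p: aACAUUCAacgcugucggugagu
negative control: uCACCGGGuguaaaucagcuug
The matching letters in a transcript are UGAAUGU, written TGAATGT in the genome. Of the 36 astrocyte genes that could be tested, 4 held this match in their longest annotated 3′ UTR, namely Kcnj10, Aqp4, Ndrg2 and Dio2, the last with 2 matches. That is 11.1%, against 19.2% (2793 of 14512) of all tested genes with an annotated 3′ UTR. The median 3′ UTR length was 986.5 bases in the astrocyte genes and 1374.5 bases in all of these genes. The matches of Kcnj10, Ndrg2 and Dio2 are shown on the strand of the transcript, 5′ to 3′, with the match in capitals.
Kcnj10, chr1:172372037-172372061, plus strand: accagaagaaccTGAATGTctgaaa
Ndrg2, chr14:51905620-51905644, minus strand: aatagtcccaaaTGAATGTttatca
Dio2, first match, chr12:90726513-90726537, minus strand: caatgacttcctTGAATGTagagcc
Dio2, second match, chr12:90726238-90726262, minus strand: attccctttgtgTGAATGTatttga
These coordinates are of GRCm38, the build of the counts (mm10). Both matches of Dio2 and that of Aqp4, whose sequence is not shown here, are followed by an A, and those of Kcnj10 and Ndrg2 are not. A match of these letters is a description of the sequence and not evidence of binding.

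The labelled cell type was checked first. The neuron list summed to between 10840 and 11090 CPM (read counts scaled to the size of each library) in the controls, and the 37 astrocyte genes to between 5996 and 6283 CPM, so transcripts of both cell types were abundant in every library. Microglia genes summed to between 27.1 and 29.5 CPM in the controls. The sequencing depth ran from 17287168 to 48091231 counted reads per library, and a count of 3, taken as the floor of detection, stood for between 0.0631 and 0.175 CPM. No library stood apart from its group in total counts by Dixon's criterion on the log2 scale. Bulk libraries cannot tell fewer astrocytes from less RNA of a gene per astrocyte, and this holds for every difference below.

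Compared per length of exon, the astrocyte genes spanned a wide range of levels. Cst3, which encodes the secreted protease inhibitor cystatin C, stood highest with 455 ± 12.4 RPKM (SD, n = 6 controls). It was followed by Fabp7, the brain fatty acid binding protein of radial glia and young astrocytes, with 349 ± 19.5 RPKM. The next in order were Mt3 with 185 ± 3.95 RPKM and Gfap with 173 ± 11.8 RPKM, whose intervals of 1 SD overlap. Mt1 (144 ± 7.95 RPKM), Aldoc (127 ± 8.20 RPKM) and Ndrg2 (122 ± 3.69 RPKM) came below them, and the last pair did not differ beyond their spread. The identity genes Aqp4 (27.9 ± 1.78 RPKM), Aldh1l1 (19.9 ± 0.671 RPKM), Sox9 (10.9 ± 0.522 RPKM) and S100b (7.77 ± 0.888 RPKM) stood in the middle and lower part of the order. The lowest 4 were Agt, Slc7a10, Gjb6 and Lcn2, each under 1 RPKM. Among the other astrocyte genes, the glutamate transporter genes Slc1a2 and Slc1a3 stood at 183 and 122 RPKM in the controls and Apoe at 390 RPKM, all within the range of the list. In the plot of levels per length the control and mimic samples of nearly every gene lie on top of each other on this scale.

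**Figure D1:**
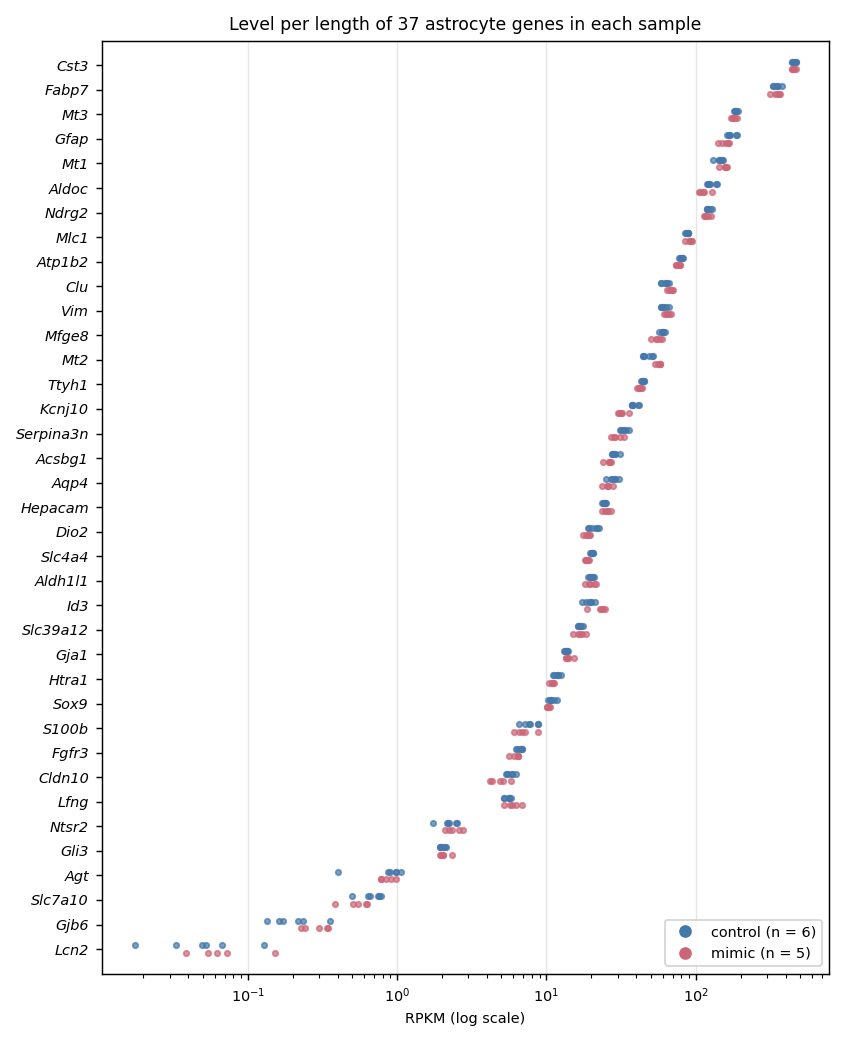
Level of each of the 37 astrocyte genes in RPKM (x axis, log scale), 1 point per sample, with controls in blue (n = 6) and mimic samples in red (n = 5), ordered by the control mean. Cst3 is at the top with 455 RPKM and Lcn2 at the bottom with 0.0580 RPKM, and the difference between groups is small beside the range between genes.

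The comparison of mimic with control asked whether a raised miR-181a-5p went with a different expression of these genes. Over all 17365 genes tested with edgeR's quasi-likelihood test, 495 passed an adjusted p of 0.05, which is 2.85%. Of these, 307 were lower in mimic (1.77%) and 188 higher (1.08%), a split that was 226 lower and 234 higher when the libraries were scaled by their upper quartile. Without control replicate 1, the deepest library, the count was 218. Without mimic replicate 2 it was 237, and without mimic replicate 4 it was 278. Of the 36 astrocyte genes tested, 6 passed (16.7%). Kcnj10, Slc4a4, Acsbg1 and Cldn10 were lower, and Mt2 and Clu were higher. Of the 9673 genes that averaged 10 CPM or more, 3.97% passed, and of the 32 astrocyte genes this abundant 6 did (18.8%). Without control replicate 1, and likewise without mimic replicate 2, 3 of these 6 passed, and they were Kcnj10, Slc4a4 and Mt2. Groups that did not overlap in CPM were seen in 4 of the 36 (11.1%), against 2.89% of all genes, namely in Kcnj10, Slc4a4, Acsbg1 and Mt2. At an unadjusted p under 0.05 there were 22 of 36 (61.1%), against 15.7% of all genes, a share not matched for abundance. A high share was not particular to astrocyte genes. Among the other cell types described below there were 8 of 12 neuron, 7 of 8 fibroblast and mural and 9 of 10 dividing cell genes. There were 2 of 11 microglia, 3 of 10 oligodendrocyte lineage, 1 of 6 endothelial and 1 of 6 ependymal genes. Fitted log2 fold changes of the 36 astrocyte genes were below 0 in 23 and above 0 in 13. Their median was -0.055, against a median of -0.0001 over all genes. The differences were small. Only Kcnj10, Slc7a10 and Gjb6 had a fitted difference of more than 1.2-fold, and the last 2 did not pass.

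**Figure D2:**
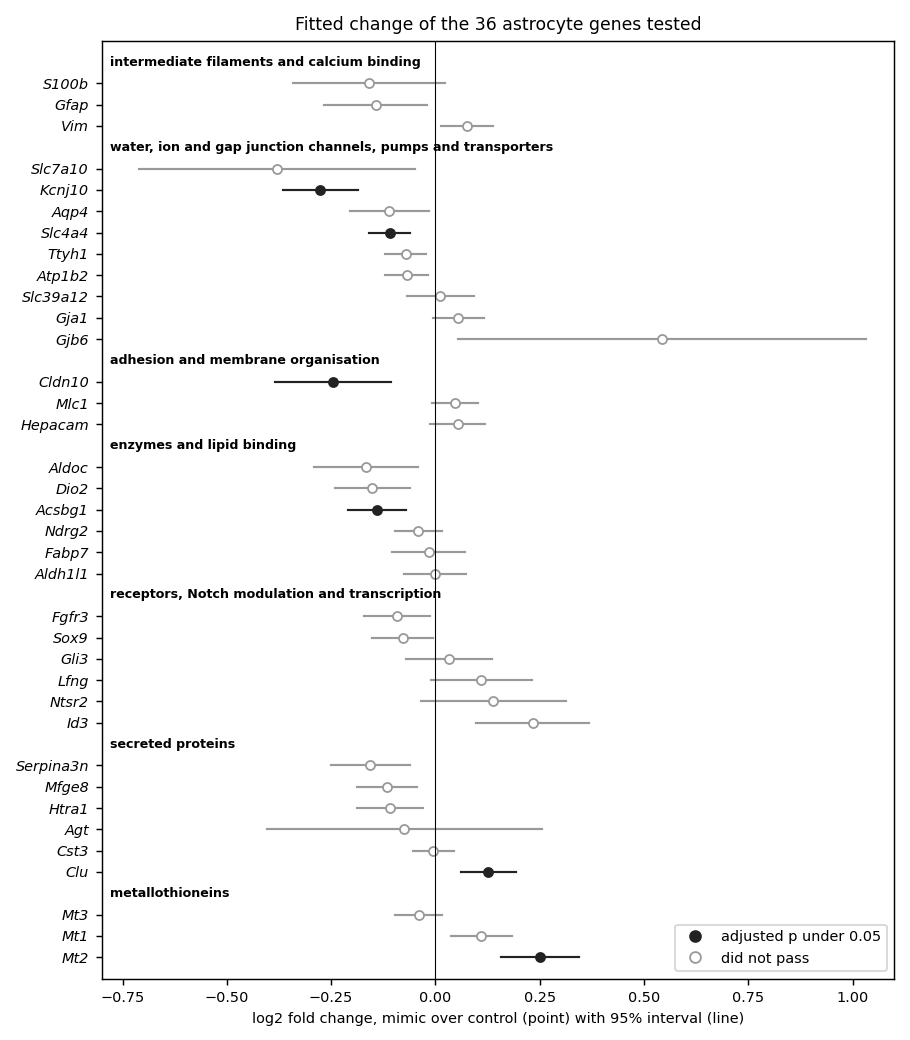
Fitted log2 fold change of mimic over control (x axis, points) with its 95% interval (lines) for the 36 astrocyte genes tested, grouped by role. The 6 genes with an adjusted p under 0.05 are filled, 4 of them left of 0 and 2 right of it, and the long intervals belong to Gjb6, Slc7a10 and Agt, which were measured with few reads.

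Kcnj10 encodes Kir4.1, the inwardly rectifying potassium channel through which astrocytes take up potassium (ENSMUSG00000044708, chr1:172341210-172374085 in GRCm38). The controls ran from 201 CPM over a median of 205 CPM to 225 CPM, and the mimic samples had 166, 173, 195, 171 and 164 CPM. Every mimic sample was below every control, and mimic replicate 3 came closest to them. The difference of -17.3% (log2 fold change -0.28, SE 0.043, 95% interval -0.37 to -0.19) passed with edgeR's adjusted p of 0.00237. It passed under all 18 alternatives, with adjusted p of at most 0.0156. The seed match shown above lies in its 3′ UTR. Slc4a4 encodes the sodium bicarbonate cotransporter NBCe1 (ENSMUSG00000060961, chr5:88886818-89239653). Its controls were tightly grouped, from 213 CPM over a median of 219 CPM to 221 CPM, and the mimic samples had 201, 199, 197, 209 and 204 CPM. The groups did not overlap, and the difference of -7.30% (log2 fold change -0.11, SE 0.024) passed with edgeR's adjusted p of 0.0118 and under all 18 alternatives. Its 3′ UTR held no 7-base match.

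The other channels, pumps and transporters did not pass. Aqp4, the water channel of astrocyte endfeet, ran in the controls from 157 CPM over a median of 175 CPM to 190 CPM, and the mimic samples had 148, 162, 161, 159 and 175 CPM. These groups overlap (log2 fold change -0.11, 95% interval -0.21 to -0.015, adjusted p 0.232 with edgeR). Gja1, which encodes connexin 43, the main gap junction protein of astrocytes, ran from 135 CPM over a median of 138 CPM to 143 CPM in the controls. The mimic samples of Gja1 had 139, 143, 144, 139 and 156 CPM, of which replicates 3 and 5 lay above all controls (log2 fold change 0.055, 95% interval -0.007 to 0.12). Gjb6, the connexin 30 gene, was near the limit of detection with 0.357 to 0.946 CPM in the controls and 0.608 to 0.916 CPM in the mimic samples, and its interval from 0.053 to 1.03 on the log2 scale is the widest of all. Slc7a10, the neutral amino acid transporter Asc-1, was also low with 1.06 to 1.64 CPM against 0.805 to 1.32 CPM, and 17.9% of its exon length overlaps Lrp3 on the opposite strand. Reads from the 2 strands cannot be told apart in these libraries. Atp1b2, a beta subunit of the sodium-potassium pump, and Ttyh1, a chloride channel family member, had log2 fold changes of -0.069 (SE 0.025) and -0.071 (SE 0.024), and Slc39a12, a zinc transporter, had 0.012 (SE 0.040). Summed over the 9 genes of this role, the controls ran from 1377 to 1434 CPM and the mimic samples from 1287 to 1338 CPM, without overlap. The sums of the other roles all overlapped between groups. Their differences ran from -5.3% (filaments and calcium binding) to 3.44% (metallothioneins).

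Among the adhesion and membrane proteins, Cldn10 stood apart from the pair Mlc1 and Hepacam. Cldn10, a claudin (ENSMUSG00000022132, chr14:118787908-118875489), ran from 13.8 CPM over a median of 14.7 CPM to 16.3 CPM in the controls. The mimic samples had 10.8, 13.3, 14.9, 12.8 and 11.2 CPM, and mimic replicate 3 lay within the controls. The difference of -15.0% (log2 fold change -0.25, SE 0.068) passed narrowly with edgeR's adjusted p of 0.046. It no longer passed when any of 9 of the 11 libraries was left out, with adjusted p of up to 0.158 (without control replicate 1), the exceptions being control replicate 5 and mimic replicate 3. With all 11 libraries it also failed with upper quartile scaling in edgeR (adjusted p 0.0551) and with limma (0.0777). With the replicate numbers as a block in edgeR the adjusted p was 0.109. Mlc1 and Hepacam encode partner proteins of astrocyte contacts that are affected in a human leukodystrophy. Their log2 fold changes were 0.048 (95% interval -0.008 to 0.10) and 0.053 (95% interval -0.013 to 0.12), so a difference of the size of that of Cldn10 lies outside both intervals.

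All 6 enzyme and lipid-binding genes had fitted differences below 0, that of Aldh1l1 turning above 0 with the other scalings, and 1 of 6 passed. Acsbg1, an acyl-CoA synthetase (ENSMUSG00000032281, chr9:54604877-54661870), ran from 99.0 CPM over a median of 102 CPM to 111 CPM in the controls, and the mimic samples had 94.9, 94.6, 97.2, 96.4 and 85.8 CPM. The groups did not overlap, and mimic replicate 5 was the lowest. The difference of -9.07% (log2 fold change -0.14, SE 0.034) passed with edgeR's adjusted p of 0.0228. Without control replicate 1 it was 0.0934, without mimic replicate 2 it was 0.0567 and without mimic replicate 5 it was 0.0594. Aldoc, the brain aldolase and a glycolytic enzyme, had controls from 388 CPM over a median of 402 CPM to 451 CPM and mimic samples at 349, 365, 418, 371 and 344 CPM. Of the mimic samples only replicate 3 lay within the controls (log2 fold change -0.17, SE 0.057, adjusted p 0.171 with edgeR). Without it the adjusted p was 0.0125, the only pass of Aldoc among 11 omissions of 1 sample, which gave up to 0.308. Leaving out the sample nearest the other group lowers the p-value by construction, here and for the genes below. Dio2, the deiodinase that makes active thyroid hormone, holds the 2 seed matches shown above. It had controls between 110 and 132 CPM and mimic samples between 102 and 114 CPM (log2 fold change -0.15, SE 0.043, adjusted p 0.0631 with edgeR). Without control replicate 3 the adjusted p of Dio2 was 0.0176 and without control replicate 4 it was 0.0406. These were the 2 passes of Dio2 among 11 omissions of 1 sample, which gave up to 0.183. Ndrg2, the other enzyme-group gene with a match, had a log2 fold change of -0.041 (95% interval -0.098 to 0.016). Fabp7 had -0.016 (95% interval -0.10 to 0.071).

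Aldh1l1 is the enzyme gene most used to mark astrocytes as a whole. Its controls ran from 85.7 CPM over a median of 89.5 CPM to 93.8 CPM, and the mimic samples had 88.9, 87.5, 96.8, 94.5 and 81.7 CPM. The means were 89.9 CPM in both groups, and the 95% interval of the log2 fold change (-0.001) ran from -0.076 to 0.073. With DESeq2 and with the other scalings the fitted value was above 0.

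**Figure D3:**
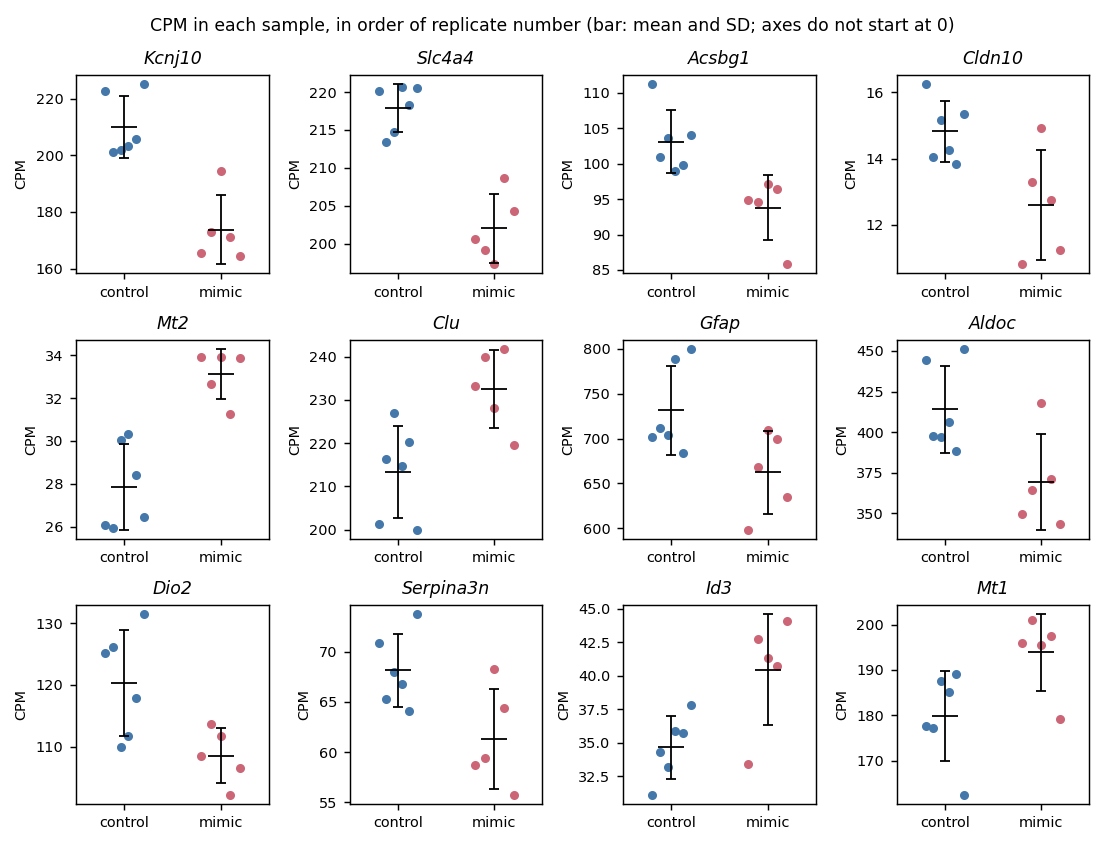
CPM of 12 astrocyte genes in every sample (points in order of replicate number, controls in blue, mimic in red) with the mean and SD of each group in black; the axes do not start at 0. The first 6 panels are the genes that passed, of which Cldn10 and Clu overlap between groups, and the last 6 are genes that did not pass, each with at least 1 mimic sample within the range of the controls.

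The filament and calcium-binding genes did not pass. Gfap ran from 684 CPM over a median of 707 CPM to 800 CPM in the controls, where replicates 4 and 6 were the highest, and the mimic samples had 599, 668, 710, 699 and 635 CPM. The log2 fold change was -0.14 (SE 0.056, 95% interval -0.27 to -0.021, adjusted p 0.232 with edgeR), and its variation between replicates (biological coefficient of variation 0.0641) was above that of genes of like abundance (0.0375). Vim, the intermediate filament shared by astrocytes, fibroblasts and dividing progenitors, ran from 278 CPM over a median of 287 CPM to 313 CPM in the controls. The mimic samples of Vim had 292, 322, 305, 312 and 301 CPM (log2 fold change 0.076, SE 0.030, adjusted p 0.203 with edgeR). S100b, a calcium-binding protein, ran from 9.69 CPM over a median of 11.4 CPM to 13.1 CPM in the controls, and the mimic samples had 8.97, 10.7, 13.03, 10.1 and 9.67 CPM. Mimic replicate 3 was as high in S100b as the highest controls, and the interval from -0.34 to 0.024 includes 0.

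No receptor, Notch modulator or transcription factor of the list passed. Sox9, a transcription factor of the astrocyte lineage, ran from 42.3 CPM over a median of 44.3 CPM to 48.4 CPM in the controls, and the mimic samples had 43.3, 41.6, 43.4, 41.7 and 42.6 CPM (log2 fold change -0.078, SE 0.036). Id3, an inhibitor of helix-loop-helix factors and a target of BMP signalling, had controls between 31.1 and 37.8 CPM and mimic samples between 33.4 and 44.1 CPM. Mimic replicate 1 was the lowest, within the controls, and the other mimic samples lay above every control. Without mimic replicate 1 the adjusted p of Id3 was 0.0017, its only pass among 11 omissions of 1 sample, which gave up to 0.171. Over all samples its log2 fold change was 0.23 (SE 0.064, adjusted p 0.0632 with edgeR). Gli3, a Hedgehog pathway factor, had 0.032 (SE 0.050), Fgfr3, a fibroblast growth factor receptor, had -0.092 (SE 0.038), Lfng, the Notch modifier lunatic fringe, had 0.11 (SE 0.059), and Ntsr2, a neurotensin receptor, had 0.14 (SE 0.085).

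The secreted proteins went different ways. Clu encodes clusterin, an extracellular chaperone of astrocytes (ENSMUSG00000022037, chr14:65968483-65981547). Its controls ran from 200 CPM over a median of 216 CPM to 227 CPM, and the mimic samples had 233, 240, 228, 242 and 220 CPM. Only mimic replicate 5 lay within the controls. The difference of 9.04% (log2 fold change 0.13, SE 0.032) passed with edgeR's adjusted p of 0.0285. It was 0.0944 without control replicate 1, 0.0935 without mimic replicate 2, 0.0851 without mimic replicate 4 and 0.065 with the replicate numbers as a block. Serpina3n, a protease inhibitor that is among the strongest markers of reactive astrocytes, ran from 64.1 CPM over a median of 67.4 CPM to 73.8 CPM in the controls. The mimic samples of Serpina3n had 58.8, 59.4, 68.3, 64.4 and 55.8 CPM, with replicates 3 and 4 within the controls (log2 fold change -0.16, SE 0.045, adjusted p 0.068 with edgeR). Without mimic replicate 3 its adjusted p was 0.0109, its only pass among 11 omissions of 1 sample, which gave up to 0.176. Of its 50-base stretches, 6.90% also occur in other genes, mainly its Serpina3 relatives, so reads from these cannot be assigned with certainty. Mfge8, a lipid-binding glycoprotein that marks cells for engulfment, had a log2 fold change of -0.12 (SE 0.035, adjusted p 0.0738 with edgeR). Without mimic replicate 3 the adjusted p of Mfge8 was 0.0171, its only pass among 11 omissions of 1 sample, which gave up to 0.176. The protease gene Htra1 had -0.11 (SE 0.039) and the angiotensinogen gene Agt, at 0.759 to 2.02 CPM in the controls, -0.075 (SE 0.16). Cst3 had -0.005 with an interval from -0.055 to 0.045, and 0.0052 with upper quartile scaling.

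Lcn2, a lipocalin raised in reactive astrocytes, was near the floor of detection in most samples and did not reach the count minimum of the test. Control replicate 1 (0.336 CPM, floor 0.0631 CPM) and mimic replicate 4 (0.398 CPM, floor 0.119 CPM) stood furthest above the floor. The controls ran from 0.0459 CPM over a median of 0.134 CPM to 0.336 CPM, and the mimic samples had 0.101, 0.190, 0.162, 0.398 and 0.142 CPM. A difference of Lcn2 was not detectable at this depth, since its libraries held between 1 and 16 reads of it.

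The metallothioneins lie side by side on chromosome 8, in the order Mt3, Mt2 and Mt1, and only Mt2 passed. Mt2 (ENSMUSG00000031762, chr8:94172664-94173568) ran from 25.9 CPM over a median of 27.4 CPM to 30.3 CPM in the controls, and the mimic samples had 33.9, 32.7, 33.9, 31.3 and 33.9 CPM. Every mimic sample was above every control. The difference of 18.8% (log2 fold change 0.25, SE 0.046, 95% interval 0.16 to 0.34) passed with edgeR's adjusted p of 0.00262, and it passed under all 18 alternatives with adjusted p of at most 0.0145. In the annotation 73.5% of the exon length of Mt2 lies opposite the exons of Gm45774, which had a mean of 0.754 CPM, and reads of the 2 strands cannot be told apart. Mt1 ran from 163 CPM over a median of 181 CPM to 189 CPM in the controls, and the mimic samples had 196, 201, 196, 197 and 179 CPM. Mimic replicate 5 of Mt1 lay within the controls and the other 4 above them (log2 fold change 0.11, SE 0.035, adjusted p 0.099 with edgeR). Without that sample the adjusted p was 0.0155, the only pass of Mt1 among 11 omissions of 1 sample, which gave up to 0.23. Mt3, the metallothionein typical of brain, ran from 191 CPM over a median of 197 CPM to 204 CPM in the controls and had 189, 196, 201, 188 and 183 CPM in the mimic samples, with an interval of the log2 fold change from -0.096 to 0.015. The interval of Mt3 does not overlap those of Mt1 (0.037 to 0.18) and Mt2.

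The promoters of the 3 genes are shown because metallothionein genes are known to be switched on by zinc and copper through short metal response elements. The core of that element was searched as TGCACNC and TGCGCNC on both strands, in the 250 bases before and 50 bases after each start that RefSeq gives on GRCm38.p6. The counts depend on these starts. GENCODE begins Mt2 at 94172664, close to the end of its window, and no other start was searched. All 3 genes are on the plus strand, and matches are in capitals.
Mt3, chr8:94152357-94152656: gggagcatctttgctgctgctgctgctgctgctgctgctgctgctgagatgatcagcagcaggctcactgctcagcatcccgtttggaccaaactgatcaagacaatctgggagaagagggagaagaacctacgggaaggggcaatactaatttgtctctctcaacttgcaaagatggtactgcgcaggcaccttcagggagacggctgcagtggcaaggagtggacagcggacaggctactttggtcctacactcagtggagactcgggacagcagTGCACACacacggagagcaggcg
Mt2, chr8:94172368-94172667: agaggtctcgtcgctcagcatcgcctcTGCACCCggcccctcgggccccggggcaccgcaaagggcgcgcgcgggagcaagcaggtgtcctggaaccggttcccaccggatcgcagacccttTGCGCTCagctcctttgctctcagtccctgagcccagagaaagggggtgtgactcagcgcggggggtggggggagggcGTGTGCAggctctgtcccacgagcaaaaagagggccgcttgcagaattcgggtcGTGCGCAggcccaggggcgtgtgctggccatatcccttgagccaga
Mt1, chr8:94178839-94179138: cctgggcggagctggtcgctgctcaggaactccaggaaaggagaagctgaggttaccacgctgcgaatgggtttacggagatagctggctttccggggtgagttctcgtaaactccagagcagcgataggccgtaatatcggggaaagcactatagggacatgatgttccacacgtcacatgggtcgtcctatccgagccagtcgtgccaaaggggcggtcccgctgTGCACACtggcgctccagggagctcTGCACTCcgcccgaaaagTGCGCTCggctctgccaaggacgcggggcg
The window of Mt2 held 4 matches, 2 on each strand, that of Mt1 held 3 and that of Mt3 held 1. After the start lie 1 of the 4 matches of Mt2, 2 of the 3 of Mt1 and the only match of Mt3. These counts are therefore of the whole window and not of the bases before the start alone. No match overlaps another. Of all 32851 promoter windows of this length, 25.7% held at least 1 match, 1.97% at least 3 and 0.517% at least 4. A match does not show that a factor binds there, and no binding was measured.

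Across the list, the same few samples were often the extremes of their group, as the map of deviations shows. Of the 36 genes tested, control replicate 6 was the highest control in 15 and control replicate 1 in 10. Mimic replicate 3 was the highest mimic sample in 19, and mimic replicates 5 and 1 were the lowest in 15 and 14. Kcnj10, Aldoc, Cldn10, S100b and Serpina3n share this order. Summed over the 37 genes, the controls ran from 5996 CPM over a median of 6070 CPM to 6283 CPM, and the mimic samples had 5669, 5911, 6156, 5974 and 5732 CPM, so mimic replicate 3 alone lay within the controls. Variation between replicates was above that of genes of like abundance in 23 of the 36.

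**Figure D4:**
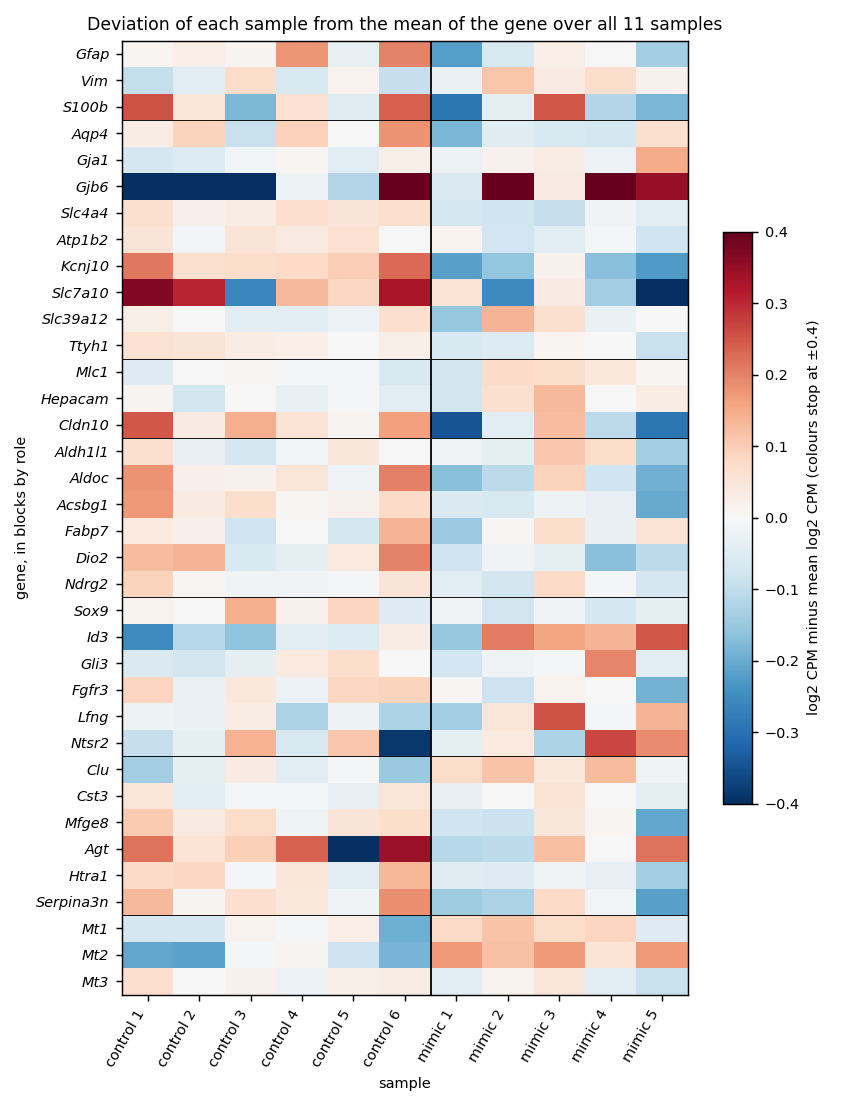
Deviation of log2 CPM of each sample from the mean of that gene over all 11 samples (colour, red above and blue below, stopping at ±0.4), with genes in blocks by role (rows) and samples in columns, controls left of the line. Kcnj10 and Slc4a4 are red in controls and paler or blue in mimic samples and Mt2 is mostly the reverse, while the columns of control 1, control 6 and mimic 3 are redder than their neighbours in S100b, Aldoc and Serpina3n.

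Other genes of astrocytes, from 4 further lists of 73 genes, gave 8 that passed of 69 tested (11.6%), 4 in each direction. Over all genes tested 2.85% passed, and of those averaging 10 CPM or more 3.97% did. In the list of 40 other astrocyte-enriched genes, 4 were lower and 1 was higher. Slc1a2, the glutamate transporter GLT-1, fell from 2398 to 2109 CPM (log2 fold change -0.18, SE 0.024, adjusted p 9.95e-05 with edgeR), and its groups did not overlap. Plpp3, a lipid phosphatase, fell from 166 to 146 CPM, the glycogen-targeting subunit gene Ppp1r3c from 38.9 to 32.5 CPM, and Cbs, the cystathionine synthase gene, from 28.7 to 24.1 CPM. The longest 3′ UTRs of Slc1a2 and Ppp1r3c held 2 seed matches each, and those of Plpp3 and Cbs held none. Of the genes of these lists that were higher, H2-D1 held 1 match, and Gstm1, Ggta1 and Emp1 held none. Gstm1, a glutathione transferase, rose from 136 to 154 CPM (adjusted p 0.00115 with edgeR). Slc1a3, the glutamate transporter GLAST, had 1045 and 1046 CPM (95% interval of the log2 fold change -0.049 to 0.051), and Glul and Apoe did not pass. The summed level of this list ran from 9116 to 9433 CPM in the controls and from 8729 to 9031 CPM in the mimic samples. Of the 9 other pan-reactive genes 8 could be tested and none passed with edgeR. An unadjusted p under 0.05 was seen in 2 of the 8, against 15.7% of all genes. Of the 12 genes of the inflammatory (A1-type) state 11 could be tested, and H2-D1 and Ggta1 were higher (log2 fold changes 0.17 and 0.38). The summed level of this A1-type list ran from 90.04 to 96.27 CPM in the controls and from 96.42 to 102.6 CPM in the mimic samples, without overlap, whereas the sums of the pan-reactive and A2-type lists overlapped. Of the 12 genes of the injury (A2-type) state 10 could be tested, and Emp1 was higher (log2 fold change 0.31). H2-D1 and Gstm1 share 12.8% and 18.9% of their 50-base stretches with relatives of their gene families, so their values are uncertain to that extent. H2-D1 and Emp1 are also expressed by fibroblasts and blood vessel cells.

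Values of genes of other cell types are given here for their bearing on the list, and their part in the differences above was not tested. The share passing over all genes, for comparison with the counts below, was 2.85%. The fibroblast and mural list of 8 genes summed to between 262 and 397 CPM in the controls and to between 405 and 539 CPM in the mimic samples, without overlap. Control replicate 1, the deepest library, was the lowest with 262 CPM. Only the pericyte gene Rgs5 passed in this list, and it was lower, while the collagen gene Col1a2 had 78.9 and 115 CPM (adjusted p 0.0609 with edgeR). Fibroblasts also express Vim, Id3, Mt1, Mt2 and Clu, which were all fitted above 0. Which other astrocyte genes of the list fibroblasts express was not examined, and 23 of these genes were fitted below 0. The naming therefore covers 1 direction only. The 10 genes of dividing cells summed to between 84.5 and 92.7 CPM in the controls and 99.2 and 109 CPM in the mimic samples, and 3 of them, Top2a, Cdk1 and Rrm2, were higher. The neuron list of 12 genes ran from 10840 to 11090 CPM in the controls and from 10430 to 10690 CPM in the mimic samples, with Slc17a7, Camk2a and Nefm lower. Microglia genes (27.1 to 29.5 against 26.1 to 27.7 CPM) and oligodendrocyte lineage genes (336 to 405 against 308 to 355 CPM) overlapped between groups. None passed of 11 and 10 tested with edgeR. An unadjusted p under 0.05 was seen in 2 and 3 of them, against 15.7% of all genes. Of the endothelial list, Cdh5 was higher at 1.77 and 2.96 CPM, while the defining marker Cldn5 was at or near 0 in all samples. Of the ependymal list, whose cells share genes with astrocytes, Foxj1 was higher (adjusted p 0.0494 with edgeR).

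**Figure D5:**
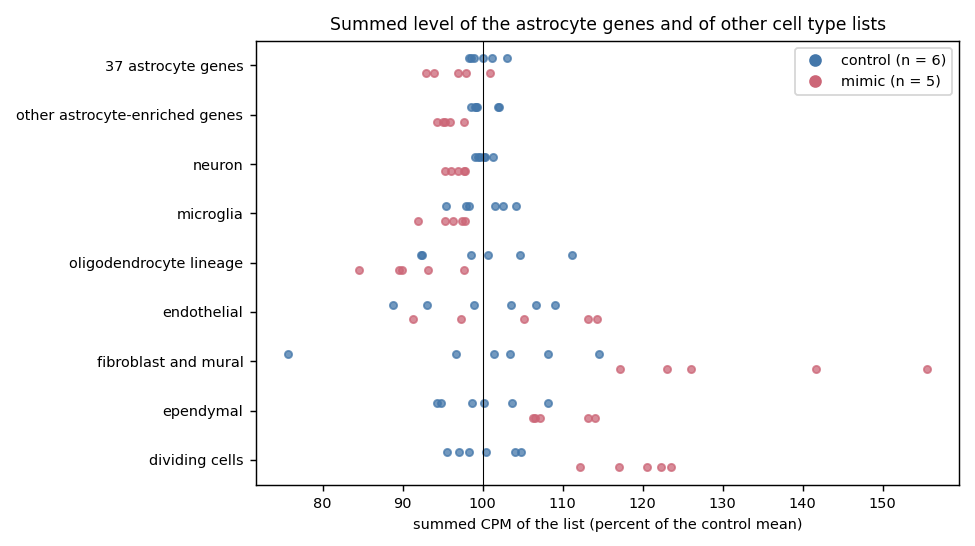
Summed CPM of the 37 astrocyte genes and of 8 other lists in each sample, as percent of the control mean (x axis), controls in blue (n = 6) and mimic in red (n = 5). The sums of the other astrocyte-enriched genes and of the neuron genes lie lower in mimic samples, and those of the fibroblast and mural and the dividing cell genes higher, all without overlap, while the groups overlap for the 37 astrocyte genes.

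Among the astrocyte genes with a seed match, the fitted log2 fold changes were all below 0, with a median of -0.13 over 4 genes, and 1 of them passed (Kcnj10). The 32 without a match had a median of -0.028, with 19 below 0, and 5 of them passed. Over all tested genes with an annotated 3′ UTR, the median was -0.023 with a match and 0.005 without. Of the 2793 with a match 1756 were below 0 and 140 passed, and of the 11719 without a match 5523 were below 0 and 340 passed. The astrocyte genes with a match are too few for a comparison of the medians, and only the longest 3′ UTR of each gene was searched.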

How the data were processed

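Libraries were made from polyA RNA with a kit that does not mark strand (TruSeq RNA Library Prep Kit v2) and sequenced as single 50-base reads. Per the labels (the submitters' processing notes), the authors checked reads with FastQC 0.11.5, aligned them to mm10 with STAR 2.5.2b and made the deposited count per gene with featureCounts (Subread 1.5.1). Which annotation they used, and how strand and multi-mapping reads were handled, is not given in the sources used here. The authors also deposited a table of normalised counts, treated here as signal, and it was used only in 1 alternative. No value column was left unassigned.

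The 37 genes and the other lists were chosen with earlier results of these data known, so counts over them are descriptions. Gene names, coordinates and exon lengths came from GENCODE M21 (GRCm38), which matched 48349 of 48709 counted genes. A gene was kept if it reached 5 counts in 50% of the libraries or more, and testing was done in edgeR 4.0.16 (R 4.3.3, TMM scaling, robust quasi-likelihood test, Benjamini-Hochberg adjustment over all genes, threshold 0.05, two-sided). The design held the group alone and all 11 samples. CPM and RPKM are TMM-scaled. SE is the size of the fitted change over the root of its F statistic, and intervals are 95%. The function was tested on simulated data. Alternatives were DESeq2 1.42.0, limma 3.58.1 on log2 (signal + 1), RLE and upper quartile scaling, other count filters, each sample left out in turn and a replicate block. No 2 replicates agreed within sampling noise (lowest chi-square per degree of freedom 1.25). All 37 genes are named. Values by sample are given for genes that passed or did not overlap and for 13 genes set by name, and other genes by range and fold change, with a few given more fully after their values were seen (Dio2, Id3). Floors cover counting error only. The table of protein sequences was not used here.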

Additional observations from a re-analysis of the deposited data

Results flagged for a closer look

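In 5 cases 1 sample stood apart from its group by Dixon's criterion on the log2 scale, over 112 sets of values examined (36 astrocyte genes, the summed lists and the total counts, in each of 2 groups). Chance gives about 1 in 20. Acsbg1 in mimic replicate 5 was at 85.8 CPM, with the nearest other mimic sample at 94.56 CPM. Id3 in mimic replicate 1 was at 33.41 CPM, below the next at 40.71 CPM. Mt1 in mimic replicate 5 was at 179.2 CPM, below the next at 195.6 CPM. Gli3 in mimic replicate 4 was the highest, at 22.31 CPM against 19.42 CPM. Agt in control replicate 5, the shallowest library, was at 0.7587 CPM against 1.654 CPM. The adjusted p of Acsbg1, Id3 and Mt1 without these samples stands beside their values in the report.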

How the results depend on the processing

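The fitted directions of the 6 astrocyte genes that passed held under all 18 alternatives, and Kcnj10, Slc4a4 and Mt2 passed in each. Without the count filter 785 genes passed in all, 13 astrocyte genes (also Aldoc, Aqp4, Dio2, Id3, Mfge8, Mt1 and Serpina3n) and 15 of the other astrocyte genes, and the cause was not tested. DESeq2 added Aldoc, Dio2 and Id3, and upper quartile scaling and limma each lost Cldn10. Leaving out 1 sample gave 218 to 491 genes in all, 3 to 9 astrocyte genes and 5 to 9 other astrocyte genes. Fewer samples were then fitted.

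Replicate numbers showed no pairing: same-numbered samples correlated at between -0.143 and 0.117 in their deviations. With the numbers as a replicate block, which leaves out control replicate 6, 328 genes passed in all and 5 astrocyte genes, with Clu (adjusted p 0.065) and Cldn10 (0.109) lost and Id3 gained (0.00278). Not every sample correlated best with its own number.

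Of 648 single-gene values, 586 kept their side of the threshold and their direction. Another 19 were no longer past it, 18 came past it and 25 turned in direction, none of these past the threshold. Aldh1l1 turned to 0.0010 with DESeq2, 0.0006 with RLE scaling, 0.0091 with upper quartile scaling, 0.0045 with the block and 0.0004 with limma. Cst3 turned to 0.0052 with upper quartile scaling and 0.0097 with the block, Fabp7 to 0.0138 with the block, and Agt to 0.0065 with the block and 0.0427 with limma. Over the samples left out, the log2 fold change ran from -0.0240 to 0.0486 for Slc39a12, -0.0225 to 0.0329 for Aldh1l1, -0.0337 to 0.0167 for Fabp7, -0.0164 to 0.0537 for Gli3 and -0.0141 to 0.0095 for Cst3. The median over the list stayed below 0 throughout. Depth limits Lcn2, Gjb6, Slc7a10 and Agt.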
